A study of Mus musculus with 3 samples.

Results

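Integrins are the cell surface receptors, each an alpha chain paired with a beta chain, with which lymphocytes hold on to other cells and to matrix. Inside the cell, talin binds the beta chain's tail to switch the receptor on, and vinculin, paxillin, zyxin and the kinase-like adaptor ILK link the clustered receptors to actin and to signalling proteins. In lymphocytes LFA-1, the pair of Itgal and Itgb2, binds ICAM molecules, while the alpha 4 chain, encoded by Itga4, pairs with Itgb1 or Itgb7 and binds VCAM-1 or MAdCAM-1 and so serves homing and retention in tissue.

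This group of 10 genes was taken by symbol from 8220 genes that had a probe set of their own on the array, and all 10 were found, with 16 probe sets in all. Pxn, which encodes paxillin, was picked from its readings, because its antisense value was below both control values. The other 9 are its partners in focal adhesions and the integrin chains that lymphocytes use.

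The cells were LNC, a line of malignant B-1 cells that was grown from the lymph node of a New Zealand Black (NZB) mouse aged 1 year. One array (antisense) held RNA of LNC given 20 µM of an oligonucleotide antisense to IL-10, one (scrambled) held RNA of LNC given 20 µM of a scrambled oligonucleotide, and one (untreated) held RNA of LNC left without oligonucleotide. Per the labels, RNA was collected at 24 h. Each group thus has a single array and no replicate, no test could be run, and the values below compare 1 array with another.

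Values are intensities of 1 probe set, which cannot be set against those of another probe set. Each array was scaled to a common trimmed mean. Differences are log2 intensities of one array minus another, with values under a noise floor of 595.9 raised to it. As a yardstick of error, each difference is set beside the 95th percentile of the gap between the controls (scrambled and untreated, in either direction) among the 300 probe sets nearest in level. The yardstick was 2.28-fold for probe sets near an intensity of 1000 and 1.80-fold for those near 2000. It contains any effect of the scrambled oligonucleotide.

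Of the 16 probe sets, 9 had a value above the floor on at least 1 array and so passed the filter, and 8 of these were above it on the 3 arrays. The other 7 probe sets were below the floor everywhere, and Zyx and Itga4 had no probe set above it. As a check of the label, Il10 itself read 13946 in antisense, 5616 in scrambled and 5164 in untreated cells. The targeted RNA was thus not lower, and "antisense" below is the library labelled so. Of 7 B cell markers on the array 6 were above the floor on the 3 arrays, but the B-1 markers Cd5 and Spn were below it on each. The sums given here set values below 0 to 0, count values under the floor and rest mostly on the brightest probe sets. Summed over the list, the B cell markers read 78808 in antisense, 106782 in scrambled and 102360 in untreated cells. Of these, Cd79a, Ms4a1, Pax5 and Cd37 were lower on the antisense array than on both controls. Cd79b was higher than both and Blk lay between them. Markers of other cells were mostly below the floor on every array, in 6 of 7 for T cells, 5 of 6 for endothelium, 5 of 7 for fibroblasts and 4 of 8 for macrophages, among them Cd3e, Cdh5, Col1a2 and Lyz2. The summed macrophage list read 16760 in antisense, 23002 in scrambled and 22739 in untreated cells, carried by Mpeg1. Mpeg1 and Cd14 were above the floor on the 3 arrays and lower in antisense than in both controls. Cd68, also above it on each, was higher, at 1331 in antisense, 767 in scrambled and 854 in untreated cells. Csf1r was above the floor on the untreated array alone. The T cell list summed to 1487 in antisense, 2883 in scrambled and 1349 in untreated cells, the fibroblast list to 2024 in antisense, 1624 in scrambled and 1734 in untreated cells, and the endothelial list to 1359 in antisense, 1665 in scrambled and 1421 in untreated cells. In the T cell, fibroblast and endothelial lists only Cd4, Col1a1 and Kdr were above the floor on every array, and Dcn on the antisense array alone. The rest of the sums of these lists comes from values under the floor. The ratio of 3-prime to 5-prime signal of 18S ribosomal RNA was 8.13 in antisense, 4.48 in scrambled and 1.72 in untreated cells. Its 5-prime reading in antisense, 640, was close to the floor. The same ratio differed little for actin, at 0.96 in antisense, 0.99 in scrambled and 0.92 in untreated cells. For Gapdh it was 0.93 in antisense, 1.00 in scrambled and 1.01 in untreated cells. These actin and Gapdh probe sets read far above 50000, the level past which spike-in controls were not used for scaling. Whether signal was still proportional to RNA there was not tested, so their ratios say little on RNA quality. The part of these markers and of RNA quality in the values below was not tested, and fewer cells of a type cannot be told apart from less RNA per cell.

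**Figure D1:**
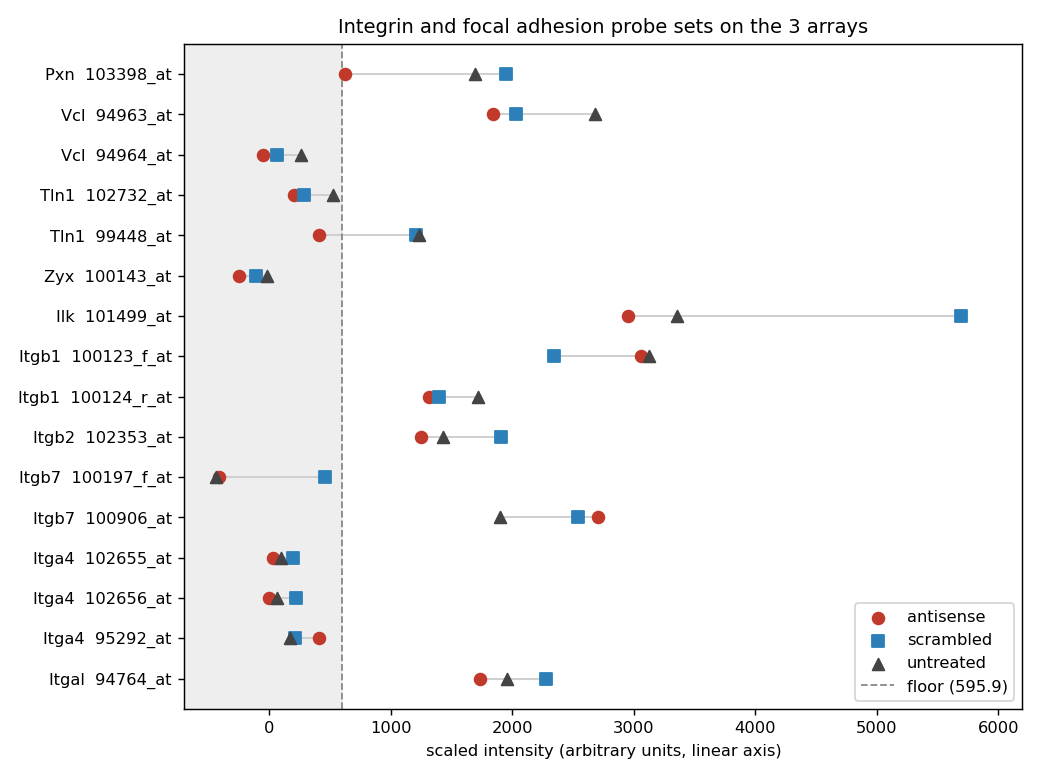
Scaled intensity (arbitrary units, linear axis) of the 16 probe sets of the 10 genes, with 1 point per array and the grey area below the floor of 595.9. Pxn and the second Tln1 probe set stand lower on the antisense array than on both controls, Ilk stands higher on the scrambled array, and both Zyx and Itga4 lie in the grey area on the 3 arrays.

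Pxn, the scaffold that docks kinases and other adaptors at adhesions, was read by a single probe set. It had an intensity of 626 in antisense, 1945 in scrambled and 1695 in untreated cells. The 2 controls lay close together, and the antisense reading stood just above the floor. The log2 difference was -1.64 against scrambled and -1.44 against untreated, which is 3.11-fold and 2.71-fold lower, while the controls differed by 0.20. Both differences exceed the yardstick of 1.23 at this level. Since these values chose the gene, they are given as a description. By the smaller of its differences Pxn was the 5th lowest of the 4539 probe sets above the floor on the 3 arrays. This rank rests on the same values that chose the gene. It also leaves out probe sets that fell below the floor on the antisense array. Of all probe sets past the filter 65 were at least 2-fold lower than both controls, and 38 of these were above the floor on the 3 arrays.

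Tln1 encodes talin, which binds both integrin tails and actin. Its brighter probe set read 411 in antisense, 1207 in scrambled and 1235 in untreated cells. The controls thus nearly coincided, and the antisense value lay below the floor. Against the floor Tln1 was at least 2.02-fold lower than scrambled and at least 2.07-fold lower than untreated. The yardstick was 2.22-fold, so these bounds do not settle whether Tln1 exceeds it. The other Tln1 probe set read 202 in antisense, 286 in scrambled and 525 in untreated cells, all under the floor, so it gives no difference. The bound moves with the floor, which is 2 robust standard deviations of the values below 0. With the floor at 1 the brighter set differed by -1.56 from scrambled and -1.59 from untreated on the log2 scale, and with the floor at 3 by -0.43 from scrambled and -0.47 from untreated. The first pair is past 2-fold, and the second is a bound short of 2-fold. The yardstick was not computed at these floors, so neither pair can be set beside it.

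Vcl encodes vinculin, which reinforces the link from talin to actin. It read 1838 in antisense, 2029 in scrambled and 2683 in untreated cells. The antisense reading was the lowest but differed from scrambled by only -0.14 on the log2 scale, and by -0.55 from untreated, both within the yardstick of 0.77. A second Vcl probe set, at -49 in antisense, 62 in scrambled and 257 in untreated cells, was below the floor.

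The promoter table of RefSeq (GRCm38.p6) holds 7 of the 10 genes. Vcl and Tln1 are shown because they encode the linked pair of talin and vinculin, of which Tln1 was at least 2-fold lower on the antisense array than on both controls while Vcl was within 2-fold of both. Genes of the actin cytoskeleton are known for CArG boxes, the sites of serum response factor, so this motif was searched on both strands from 250 bases before to 50 after each start. It was found in 1 of the 7 genes, Vcl. By promoter window that is 1 of 8, or 12.5%, beside 1.63% of all 32851 windows. No match says only that these letters are not in the window. The Vcl stretch starts 250 bases before the start of the transcript, with the CArG box in capitals, on the plus strand at chr14:20929148-20929207. The Tln1 stretch is the 100 bases before its start, on the minus strand at chr4:43562584-43562683.
Vcl: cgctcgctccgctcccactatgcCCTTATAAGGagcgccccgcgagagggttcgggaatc
Tln1: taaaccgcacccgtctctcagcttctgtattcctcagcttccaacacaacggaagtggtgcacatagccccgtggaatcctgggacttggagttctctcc

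Ilk encodes integrin-linked kinase, an adaptor that sits on beta 1 tails with PINCH and parvin. It read 2950 in antisense, 5698 in scrambled and 3352 in untreated cells. Here the scrambled array stood apart from both others. The log2 difference was -0.95 for antisense against scrambled and 0.77 for scrambled against untreated, both past the yardstick of 0.70, and -0.18 for antisense against untreated, which lay within it. Zyx, whose protein zyxin recruits Ena/VASP proteins to adhesions, read -252 in antisense, -108 in scrambled and -22 in untreated cells, and no level can be given for it beyond below the floor.

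No integrin chain differed past its yardstick in any comparison at the trimmed-mean scaling. Itgal read 1735 in antisense, 2274 in scrambled and 1958 in untreated cells, and its partner Itgb2 read 1245 in antisense, 1910 in scrambled and 1427 in untreated cells. Both LFA-1 chains therefore read lowest on the antisense and highest on the scrambled array. The differences were -0.39 against scrambled and -0.17 against untreated for Itgal, and -0.62 against scrambled and -0.20 against untreated for Itgb2, within the yardsticks of 0.85 for Itgal and 1.10 for Itgb2.

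Itgb7, the beta chain of the gut-homing integrin, was the only member past the filter with a probe set that read higher on the antisense array than on both controls. It read 2703 in antisense, 2538 in scrambled and 1898 in untreated cells, a log2 difference of 0.09 against scrambled and 0.51 against untreated, within the yardstick of 0.68. Both oligonucleotide arrays thus read above the untreated one. A family probe set of Itgb7 read -413 in antisense, 456 in scrambled and -436 in untreated cells, all below the floor.

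Itgb1, the beta chain shared by many matrix receptors, had 2 probe sets built on the same sequence entry, a family and a reduced one, which can bind other transcripts. The family set read 3056 in antisense, 2339 in scrambled and 3123 in untreated cells. The reduced set read 1313 in antisense, 1399 in scrambled and 1716 in untreated cells. The sets put antisense and scrambled cells in opposite order, with a log2 difference of 0.39 in the family set and -0.09 in the reduced set. Against untreated cells the antisense difference was -0.03 in the family set and -0.39 in the reduced set, and none exceeded the yardstick, 0.65 for the family and 1.11 for the reduced set. The alpha chain Itga4 was below the floor in all 3 of its probe sets, which read 32, -6 and 412 on the antisense array, 194, 220 and 211 on the scrambled array and 92, 65 and 173 on the untreated array. The beta chains Itgb1 and Itgb7 were read above the floor and their shared partner was not.

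**Figure D2:**
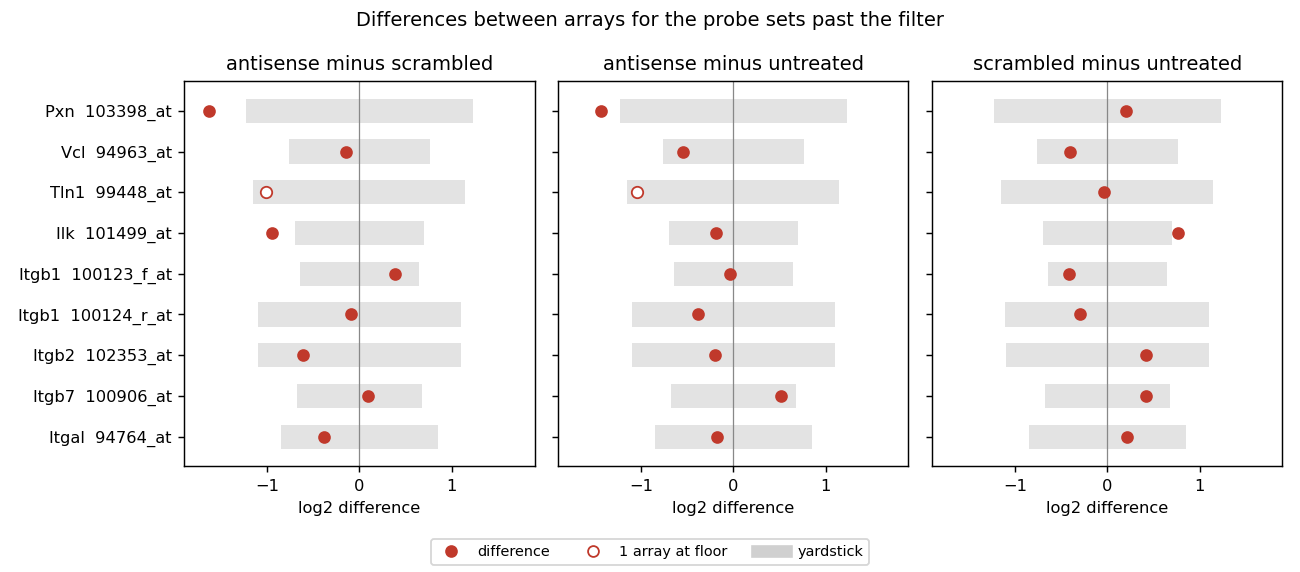
Log2 difference between arrays for the 9 probe sets past the filter, with grey bars for the yardstick in either direction and an open point where 1 array was at the floor. Pxn lies outside the bar against both controls, and Ilk lies outside it against scrambled and for scrambled against untreated.

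Over the 9 probe sets past the filter, 2 were at least 2-fold lower on the antisense array than on both controls, those of Pxn and Tln1, and none was 2-fold higher, where 1.06% of the 6127 probe sets past the filter were 2-fold lower than both and 1.35% were 2-fold higher. Pxn entered by its value, so nothing is read from its part in this count, and that of Tln1 is a bound. By the differences with the floor applied, 1 probe set was past the yardstick against both controls, that of Pxn, against a background of 2.5% lower, while the bounds of Tln1 leave it undetermined. Of the 8 probe sets of the other genes, 6 were lower than both controls by any amount, or 75.0% beside a background of 32%. Another 1 was higher, beside a background of 37.2%. Of the 6127 probe sets behind this background 4539 were above the floor on the 3 arrays, as were all of the 8 but that of Tln1. A probe set at the floor on the antisense array and a control counts as neither lower nor higher, so these shares are not like for like. The lists below are set beside the same background. With scaling to the spike-in controls 1 of the 8, that of Tln1, was lower than both, beside a background of 5.31%, and 5 were higher, beside 81.6%. These shares are a description: both controls are set against the same antisense array, none of the 8 other than Tln1, which is undetermined, could be placed past the yardstick against both, 1 is a second probe set of Itgb1, and that of Tln1 passed the filter through the controls alone and so could not be higher than both.

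With 1 probe set per gene, the median of the 8 genes past the filter was -0.50 against scrambled and -0.19 against untreated. Without Pxn the median of the other 7 was -0.39 against scrambled and -0.18 against untreated, and 0.22 for scrambled against untreated. The medians of all probe sets past the filter were 0 in each comparison. Against scrambled alone 2 probe sets passed the yardstick with the floor applied, Pxn and Ilk, both lower, beside a background of 5.75% lower. Against untreated alone only Pxn did, beside 4.08% lower, and between the controls only Ilk did, beside 2.24% higher.

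These directions depend on the scaling. The 6 bacterial spike-in control probe sets used for it were lower on the antisense array by a mean log2 difference of -0.51 against scrambled and -0.63 against untreated. Scaling to them raises each antisense difference of values above the floor by 0.51 against scrambled and 0.63 against untreated. The yardstick comes from the gap between the controls and does not contain this shift. At this scaling 81.6% of all probe sets past the filter were higher on the antisense array than on both controls. In all, 517 were at least 2-fold higher than both. Pxn then differed by -1.12 from scrambled and -0.81 from untreated, so it stayed lower than both controls but within the yardstick of 1.18 computed at that scaling. There no member was 2-fold lower than both with the floor applied. Tln1, at -0.86 against scrambled and -0.78 against untreated, is a bound there too. The median of the genes turned to 0.01 against scrambled and 0.44 against untreated. The medians of all probe sets past the filter were then 0.46 against scrambled and 0.57 against untreated. The member medians, which include Pxn, lay below these in both comparisons, as they lay below 0 at the trimmed-mean scaling. Vcl turned to 0.37 against scrambled and 0.09 against untreated, and Ilk was at -0.44 against scrambled and 0.45 against untreated, within its yardstick of 0.74 there. Itgb7 was at 0.60 against scrambled and 1.14 against untreated, the second past its yardstick of 0.70, and the family set of Itgb1 at 0.90 against scrambled, past 0.72, and 0.60 against untreated. With the floor at 3 robust standard deviations Pxn was at -1.12 against scrambled and -0.92 against untreated, both bounds. With that floor applied, no member was 2-fold lower than both controls.

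**Figure D3:**
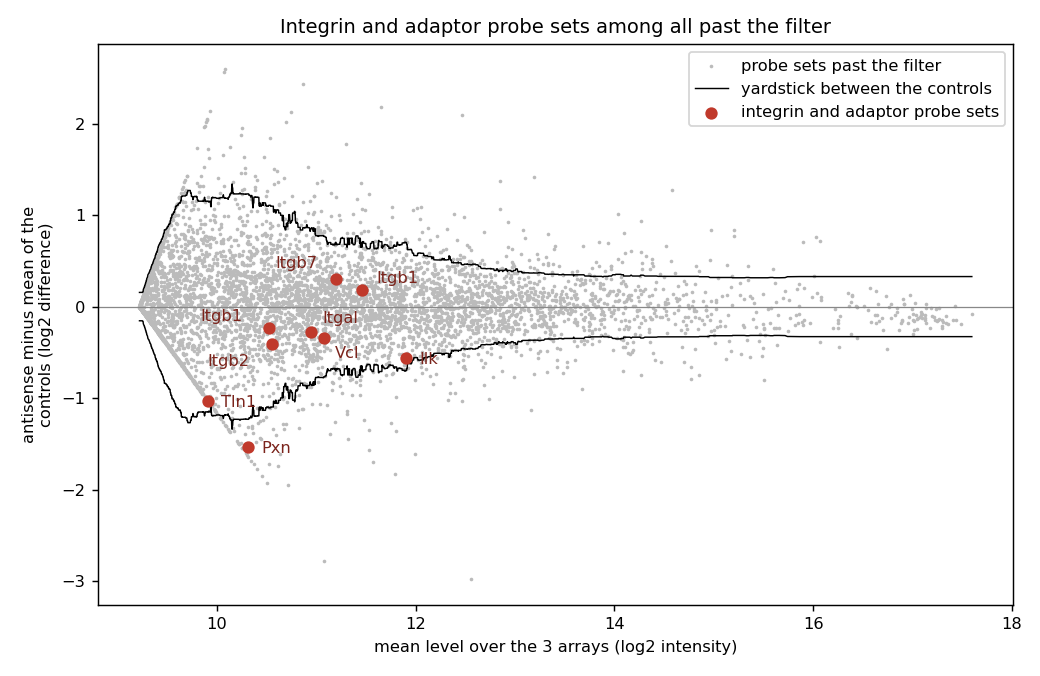
Antisense minus the mean of the controls (log2 difference) against mean level over the 3 arrays (log2 intensity) for the 6127 probe sets past the filter in grey, with those of the integrin and adaptor genes in red and the yardstick of a single control difference as black lines. Pxn lies below the lower line, Tln1 is drawn at its bound, on the edge that the floor sets, and the other genes lie inside the lines.

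Among genes that switch integrins on from inside the cell, Rasgrp2 was the one whose readings resembled those of Pxn. It encodes CalDAG-GEFI, an exchange factor that loads the small GTPase Rap1, which in turn brings talin to integrins. Rasgrp2 read 679 in antisense, 2088 in scrambled and 1706 in untreated cells. As for Pxn, the controls were close and the antisense reading stood near the floor. Its differences of -1.62 against scrambled and -1.33 against untreated exceed the yardstick of 1.20, and with spike-in scaling they were -1.11 against scrambled and -0.70 against untreated, within the yardstick of 1.18 there. It was the only one of 67 genes past the filter in the 5 lists of adhesion genes that was at least 2-fold lower than both controls, or 1.49% beside the background of 1.06%, and its controls were within 2-fold of each other.

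The other genes of that list differed less. Of 19 genes on the array, 16 passed the filter. Of these, 9 lay below both controls and 3 above them, beside backgrounds of 32% lower and 37.2% higher. The medians were -0.22 against scrambled and -0.16 against untreated. With scaling to the spike-in controls 1 of the 16 lay below both controls and 14 above them, beside backgrounds of 5.31% lower and 81.6% higher. The medians then turned to 0.30 against scrambled and 0.48 against untreated. The medians of all probe sets were 0.46 against scrambled and 0.57 against untreated there. Rap1a itself differed by -0.21 from scrambled and 0.01 from untreated, and Apbb1ip, the RIAM adaptor between Rap1 and talin, by -0.22 from scrambled and -0.36 from untreated, all within their yardsticks. Plcg2, a phospholipase of B cell receptor signalling, differed by -0.58 against scrambled, slightly past its yardstick of 0.56, and by -0.31 against untreated, within it; with spike-in scaling it was at -0.06 against scrambled and 0.32 against untreated. Cytip, which binds the integrin regulator cytohesin-1, read 7655 in antisense, 5235 in scrambled and 6218 in untreated cells. It was higher by 0.55 against scrambled and 0.30 against untreated, the first past its yardstick of 0.46. A dimmer Cytip probe set was higher by 0.29 against scrambled and 0.32 against untreated, within its yardstick of 0.68. With spike-in scaling the brighter set was higher by 1.06 against scrambled and 0.93 against untreated. Both are past 0.53, a yardstick that does not contain the shift of that scaling.

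Of 27 focal adhesion kinases and adaptors on the array, 18 passed the filter. Of these, 4 were lower than both controls and 5 were higher, beside backgrounds of 32% lower and 37.2% higher. The medians were -0.06 against scrambled and 0.00 against untreated. With spike-in scaling 1 of 17 was lower than both and 11 were higher, beside backgrounds of 5.31% lower and 81.6% higher. Vasp, an actin elongation factor carried to adhesions by zyxin, was the one gene here past the yardstick of both controls. It read 3203 in antisense, 5589 in scrambled and 4719 in untreated cells, a difference of -0.80 against scrambled and -0.559 against untreated beside a yardstick of 0.555. Scaled to the spike-in controls it was at -0.29 against scrambled and turned to 0.07 against untreated.

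Lasp1, a LIM protein that binds actin and zyxin, read 1123 in antisense, 2328 in scrambled and 2102 in untreated cells. Its difference of -1.05 against scrambled exceeds the yardstick of 1.01 and that of -0.90 against untreated does not. With spike-in scaling they were -0.54 against scrambled and -0.28 against untreated, within 1.02. A dimmer Lasp1 probe set read 160 on the antisense array, below the floor, where scrambled cells gave 945 and untreated cells 921. Cd47, an integrin-associated protein, differed by -0.50 from scrambled and -0.42 from untreated, within its yardstick of 0.55 (0.01 from scrambled and 0.21 from untreated with spike-in scaling), and in a second probe set by 0.15 from scrambled and -0.15 from untreated.

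Other integrin chains were largely unread. Of 13 on the array 10 were below the floor on every array, and 3 passed the filter. Itgav, the alpha chain of vitronectin receptors, read 2020 in antisense, 1732 in scrambled and 1697 in untreated cells in a family probe set, and its other 2 probe sets were below the floor. Itga3, a laminin receptor chain, differed by -0.38 against scrambled and 0.04 against untreated. Itgav differed by 0.22 from scrambled and 0.25 from untreated, and both genes lay within their yardsticks, 0.87 for Itgav and 1.06 for Itga3.

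Of 16 ligands and other adhesion receptors, 8 passed the filter. Of these, 3 were below both controls and 3 above them, beside backgrounds of 32% lower and 37.2% higher. With spike-in scaling 0 were below and 7 above, beside backgrounds of 5.31% lower and 81.6% higher. Icam2, a ligand of LFA-1, read 1021 in antisense, 617 in scrambled and 668 in untreated cells, a difference of 0.73 against scrambled and 0.61 against untreated, within the yardstick of 1.01. With spike-in scaling both controls of Icam2 were at the floor and it was at least 1.13 higher than each. That is past 0.99, a yardstick that does not contain the shift of that scaling. Cd82, a tetraspanin, differed by -0.93 against scrambled, past its yardstick of 0.77, and by -0.41 against untreated, within it. Its spike-in scaled differences were -0.41 against scrambled and 0.22 against untreated, within 0.83. Another Cd82 probe set differed by -0.12 against scrambled and -0.31 against untreated. Col1a1, a collagen gene, differed by -0.28 from scrambled and -0.27 from untreated, within its yardstick of 1.17, which turned to 0.23 against scrambled and 0.36 against untreated with spike-in scaling.

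Of 24 genes of the actin cytoskeleton, 22 passed the filter. Of these, 9 lay below both controls and 7 above them, beside backgrounds of 32% lower and 37.2% higher. The medians were -0.11 against scrambled and -0.09 against untreated. With scaling to the spike-in controls 1 of the 22 lay below both controls and 19 above them, beside backgrounds of 5.31% lower and 81.6% higher. The medians then turned to 0.41 against scrambled and 0.49 against untreated. The medians of all probe sets were 0.46 against scrambled and 0.57 against untreated there. Lcp1, the leukocyte actin bundler L-plastin, read 4261 in antisense, 1712 in scrambled and 2960 in untreated cells. Its difference of 1.32 against scrambled exceeds the yardstick of 0.69, while that of 0.53 against untreated does not, and the controls themselves were -0.79 apart. Tmsb10, a thymosin that binds actin monomers, differed by 0.65 from scrambled and 0.48 from untreated, within its yardstick of 0.84. With spike-in scaling Tmsb10 was 1.16 above scrambled and 1.11 above untreated, past 0.94, and Lcp1 was 1.83 above scrambled and 1.16 above untreated, past 0.72. These yardsticks do not contain the shift of that scaling, at which 81.6% of all probe sets were higher than both controls. Actb, in a family probe set, differed by -0.54 against scrambled and -0.24 against untreated, the first past its yardstick of 0.33, but -0.03 against scrambled and 0.39 against untreated with spike-in scaling, within 0.43. A dimmer Actb probe set differed by -0.27 against scrambled and -0.02 against untreated, within its yardstick of 0.395.

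**Figure D4:**
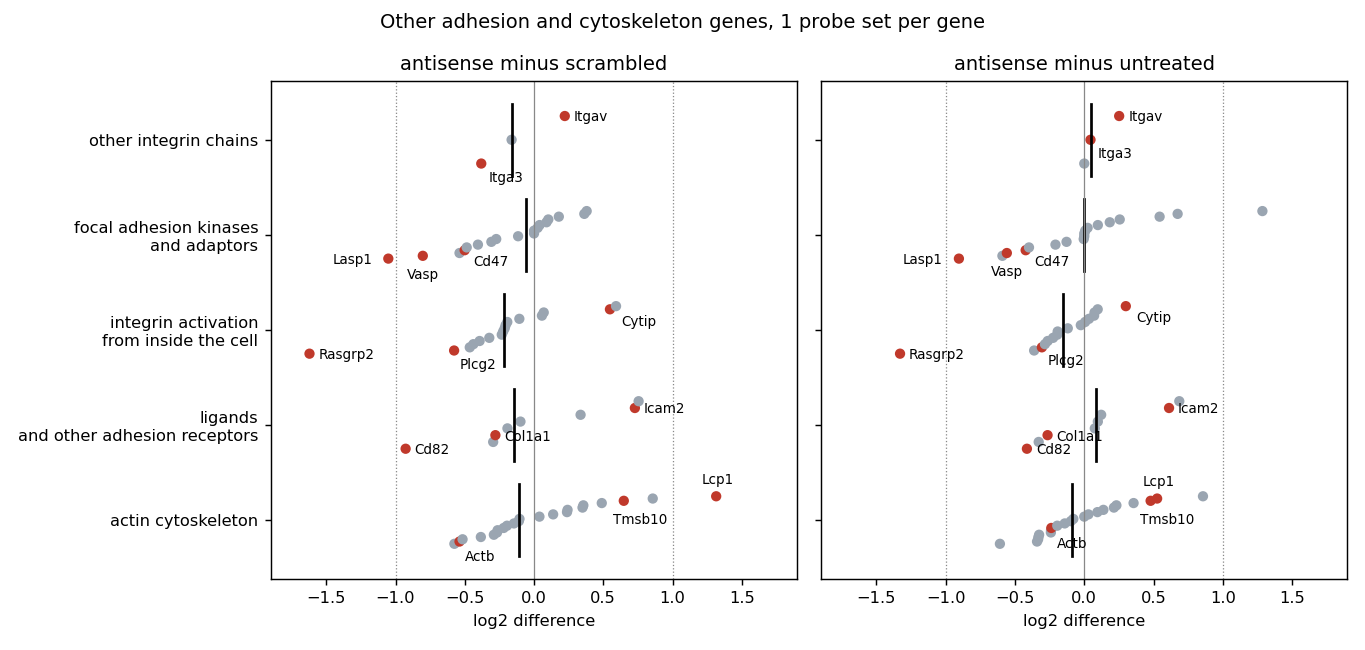
Log2 differences of the antisense array from scrambled (left) and from untreated (right) for the genes of 5 adhesion and cytoskeleton lists past the filter, 1 probe set per gene, with black bars at the medians, dotted lines at 2-fold and the named genes in red. Rasgrp2 is the one gene left of the dotted line in both panels.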

How the data were processed

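The arrays were Affymetrix mouse arrays (Murine Genome U74 version 1, array A). The authors deposited 1 intensity value per probe set and array on a linear scale, made with software not given in the sources used here. Of the deposited values 24.8% to 27.9% per array were at or below 0. With Python 3.11.15, numpy and pandas, each array was scaled to one mean with 2% trimmed from each end over 12588 probe sets that are not controls. The floor was 2 robust standard deviations (1.4826 times the median size) of the values below 0, and 6127 probe sets with a value above it were kept. Symbols came from the platform annotation, updated through RefSeq; 10276 probe sets had 1 symbol, 363 several and 1949 none. The counting was tested on simulated data. Members, lists and settings were chosen with earlier results of these data known. Every member was named, with, in each adhesion list, the 3 genes above the floor on the 3 arrays that stood farthest from the control mean, any gene 2-fold from both controls, and Rap1a and Apbb1ip, added after their values were seen. The number of arrays limits the precision.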

Additional observations from a re-analysis of the deposited data

How the results depend on the processing

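Each value was recomputed in up to 9 other settings, and 234 of 266 such values moved by less than the limit set for them (0.1 for a median, 1.5 times for a count, about a standard deviation of the yardstick for a gene). Of the 266, 207 are differences of single members, which a change of filter cannot alter. The deposited arrays already shared a trimmed mean of 1500, so that setting could change little. The 234 are therefore no measure of robustness. With spike-in scaling, 19 probe sets were 2-fold lower than both controls, 517 were 2-fold higher and 0 members were 2-fold lower with the floor applied. Pxn differed by -0.81 from untreated there, and the gene medians were 0.44 (antisense against untreated), 0.009 (antisense against scrambled) and 0.33 (scrambled against untreated). The medians of all probe sets past the filter there were 0.57, 0.46 and 0.08 in the same order. This setting also accounts for the 10 differences of single members that changed sign. With the floor at 1 robust standard deviation, 182 probe sets were lower and 191 higher, and the median against scrambled was -0.39. With the floor at 3, the numbers were 29 and 51 with 0 members, since Pxn was then at least 0.92 lower on the log2 scale than untreated. With only probe sets above the floor on the 3 arrays, 38 were lower, 37 higher and 1 member was lower, with a median of -0.39 against scrambled. With no filter, the median was -0.27 against scrambled and 0.10 between the controls, and without suffixed probe sets it was -0.62 against scrambled. No paired analysis was possible because each group has 1 array.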
